A study of Mus musculus with 23 samples.

Results

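The adhesion G protein-coupled receptors (GPCRs) of the mouse sciatic nerve (SN) were examined as a family. Members were the protein-coding genes of the GRCm38 annotation whose symbols start with Adgr, without Adgre1, together with Celsr1, Celsr2 and Celsr3. This gave 29 genes of 21458 protein-coding and 43068 listed genes, with 3 Adgra, 3 Adgrb, 1 Adgrd, 2 Adgre, 5 Adgrf, 7 Adgrg, 4 Adgrl, 1 Adgrv and 3 Celsr members. Adgre1, which encodes the macrophage antigen F4/80, was kept apart as a marker of macrophages, and the pseudogene Adgrd2-ps was left out.

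RNA sequencing of whole SN pieces was available from 2 experiments on C57bl6 mice. In the crush experiment, wild-type males of 2 months had 1 SN compressed 3 times at the sciatic notch, and a piece of 7 mm, from 1 to 8 mm distal to the crush, was taken at 3 days post crush (dpc). It holds 4 crushed nerves, contralateral nerves of the operated mice (n = 4) and uncrushed surgery control nerves (n = 3). In the inducible knockout (iKO) experiment, mice with both alleles of Dicer1 or of Dgcr8 floxed carried a CreERT2 transgene, a tamoxifen-inducible recombinase whose promoter is active in myelinating Schwann cells (SCs). Dicer and Dgcr8 are needed to make most miRNAs. Dicer iKO, Dgcr8 iKO and the Cre-negative floxed control mice of each (n = 3 per group, either sex) all received tamoxifen on 5 consecutive days at 8 to 10 weeks, and nerves were taken 3 months post tamoxifen (mpT). Other cells of the nerve keep both genes in these mutants. Not every mutant of the study had a visible change of the nerve, and the study limited its work to affected animals, so the mutants are selected ones.

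Adhesion GPCRs carry a long extracellular part that is cut near the membrane during maturation, which leaves a tethered peptide that can activate the receptor when a ligand or a pulling force bares it. In SCs the best known member is Adgrg6 (Gpr126), which binds basal lamina proteins, raises cAMP through Gs and is required for SCs to start myelination. Other members mark endothelial cells (Adgrl4, Adgrf5) or leukocytes (the Adgre group) or act in planar cell polarity (the Celsr group). The latrophilins Adgrl1, Adgrl2 and Adgrl3 bind teneurins and FLRT proteins between cells.

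Libraries held between 5594859 and 12806066 counts. In the crush libraries a single transcript of 109 nt took 61.4 to 71.8% of all TPM (a unit that accounts for library size and transcript length), so levels there are given as CPM (counts scaled to the total of the library) or as shares of the family's summed TPM. Replicates of a group differed by more than counting noise in every pair. Whole-gene counts of the deleted genes gave no clear check of the labels. Dicer1 stood at 87.4 to 90.5 CPM in Dicer controls and slightly lower, at 81.3 to 82.1 CPM, in Dicer iKO, without overlap. Dgcr8 stood at 35.4 to 41.8 CPM in Dgcr8 controls and did not fall in Dgcr8 iKO, at 39.4 to 54.0 CPM, with overlap. Counts of the floxed exons alone were not examined, and the part of other cells in these levels was not tested. The study itself reported reduced Dicer and Dgcr8 mRNA in the respective mutants, and reduced levels of an abundant miRNA in both. The Y-linked gene Ddx3y was at 0 in Dicer control replicate 3 and in Dicer iKO replicates 2 and 3 and above 100 CPM in the other iKO-experiment libraries, so sexes were unbalanced in the Dicer comparison. Dicer controls also differed from each other in cell type markers. The summed level of 7 fibroblast markers was 5350 CPM in replicate 3 and 10803 and 14167 CPM in the others.

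The defining markers of myelinating SCs were present in uncrushed nerves, where 8 genes summed to 39869 to 42802 CPM, and the lists for SCs of all states, endothelial, mural, fibroblast, perineurial and macrophage cells all had counts. Of the neutrophil markers, Ly6g was at 0 in all libraries of the iKO experiment. Whole nerves were sequenced, so fewer cells of a type and less RNA per cell cannot be told apart in any difference below.

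Of the 29 members, 21 passed the filter on low counts in all 3 comparisons of the crush experiment, Adgre4 passed in those with crushed nerves, and 7 (Adgrf2, Adgrf3, Adgrf4, Adgrg2, Adgrg3, Adgrg5 and Adgrg7) passed in none, with at most 28 counts or 2.25 CPM in any library. In the iKO experiment 17 members passed and 12 did not, with at most 24 counts or 2.80 CPM. Adgrg4 was at 0 in all 12 iKO-experiment libraries, where a floor of 3 counts corresponds to 0.296 to 0.536 CPM per library, while the crush libraries held 5 to 19 counts of it. Adgra1, Adgre4, Adgrf1, Adgrv1 and Celsr3 also passed the filter in the crush experiment alone, and Adgrg2 in the iKO experiment alone. Levels were not compared between the experiments, for which the labels name different library kits.

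In Dgcr8 controls and in uncrushed and contralateral nerves, Adgrg6, Adgrl3 and Adgrl4 had the 3 highest mean levels of the family per length. In Dgcr8 controls the mean TPM was 41.5 ± 2.27 (SD, n = 3) for Adgrg6, 40.5 ± 3.72 for Adgrl3, a latrophilin, and 33.1 ± 8.70 for Adgrl4, an endothelial orphan receptor. These were followed on the TPM scale by Adgra3 (17.5 ± 8.01), Adgre5 (16.0 ± 0.94), Celsr2 (15.1 ± 2.5) and Adgrf5 (15.1 ± 0.98). Each of these overlapped its neighbour in the order, whereas Adgrf5 did not overlap the next member, Adgra2 (12.9 ± 0.816). TPM were summed over the transcripts of a gene, and a short form weighs more per count. A form of 598 nt took 12.9 ± 4.43% of Adgrl4 counts in contralateral nerves and 3.47 ± 0.44% in Dgcr8 controls. A form of 215 nt took 0.491 ± 0.851% of Adgra3 counts in Dgcr8 controls. The order without such forms was not examined, so the places of both genes are uncertain.

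Uncrushed nerves gave the same leading 3, with Adgrg6 at 15.4 ± 1.27% of the summed family TPM (n = 3), Adgrl3 at 13.5 ± 1.43% and Adgrl4 at 12.2 ± 1.65%, and every neighbour in their TPM order overlapped. In Dicer controls Adgrg6 (33.6 ± 13 TPM), Adgrd1 (33.3 ± 13 TPM) and Adgrl3 (33.0 ± 6.5 TPM) could not be ordered beyond their spread, and Adgrl4 was at rank 5 (28.7 ± 4.89 TPM). The order changed with injury and deletion. Adgre5, a leukocyte receptor, held 5.29 ± 2.45% of family TPM in uncrushed and 4.93 ± 0.222% in contralateral nerves and ranked first in crushed nerves, with 23.1 ± 1.12% (n = 4). It also ranked first in Dicer iKO with 20.9 ± 2.84% and in Dgcr8 iKO with 19.5 ± 2.04%. On the TPM scale it did not overlap the next member in either mutant, whereas in crushed nerves it overlapped Adgrl3. Adgrg6 ranked first in all 4 groups without injury or deletion and held rank 4 in crushed nerves and in both mutants, with 8.59 ± 0.401% in crushed nerves against 18.9 ± 0.94% in contralateral ones. It overlapped the member below it in the TPM order in each of these groups. In Dicer iKO it did not overlap Adgrl3, the member above it (28.7 ± 2.35 against 42.3 ± 3.16 TPM). In that share a rise of another member lowers the rest, so the gene's own counts are given below.

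Summed over the family, levels moved by far less than those of single members. The 29 members together held 408 ± 11.3 CPM in uncrushed nerves, 444 ± 31.9 CPM in contralateral nerves and 465 ± 32.6 CPM in crushed nerves. Dicer controls and Dicer iKO held 600 ± 54.1 and 577 ± 7.66 CPM, and Dgcr8 controls and Dgcr8 iKO 610 ± 56.0 and 674 ± 29.8 CPM.

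To ask how nerve injury changes the family, crushed nerves were compared with uncrushed and with contralateral nerves by the quasi-likelihood (QL) test of edgeR, with p-values adjusted by Benjamini-Hochberg over all genes tested. Members were called when the change reached 2-fold and the adjusted p was 0.05 or less. These comparisons share the crushed libraries. Against uncrushed nerves, 5 of 22 members tested were called higher and 6 lower, where 15.3% and 21.1% of all 17433 genes tested were. Against contralateral nerves, 4 of 22 were called higher and 2 lower, where 14.6% and 13.6% of all 16667 genes were. By adjusted p alone 6 members rose and 7 fell against uncrushed nerves (67.2% of all genes passed in either direction), and 7 rose and 6 fell against contralateral nerves (66.4%). The median log2 fold change of the tested members was -0.10 against uncrushed and -0.18 against contralateral nerves, beside -0.03 and -0.06 for all genes tested. The libraries did not overlap for 6 members higher and 9 lower against uncrushed nerves (65.6% of all genes in either direction) and for 6 higher and 6 lower against contralateral nerves (59.4%). So many genes moved after crush that none of these counts sets the family apart. The counts of members higher include Adgre4, which passed the filter on low counts through the crushed nerves alone. Adgra1 and Adgrg4 passed it through the control nerves. They are among the members called lower against uncrushed nerves. In both comparisons they are also among those lower by adjusted p alone and those lower without overlap. Adgre5, Adgrg1 and Adgrl3 were called higher and Celsr1 and Celsr2 lower in both comparisons.

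**Figure D1:**
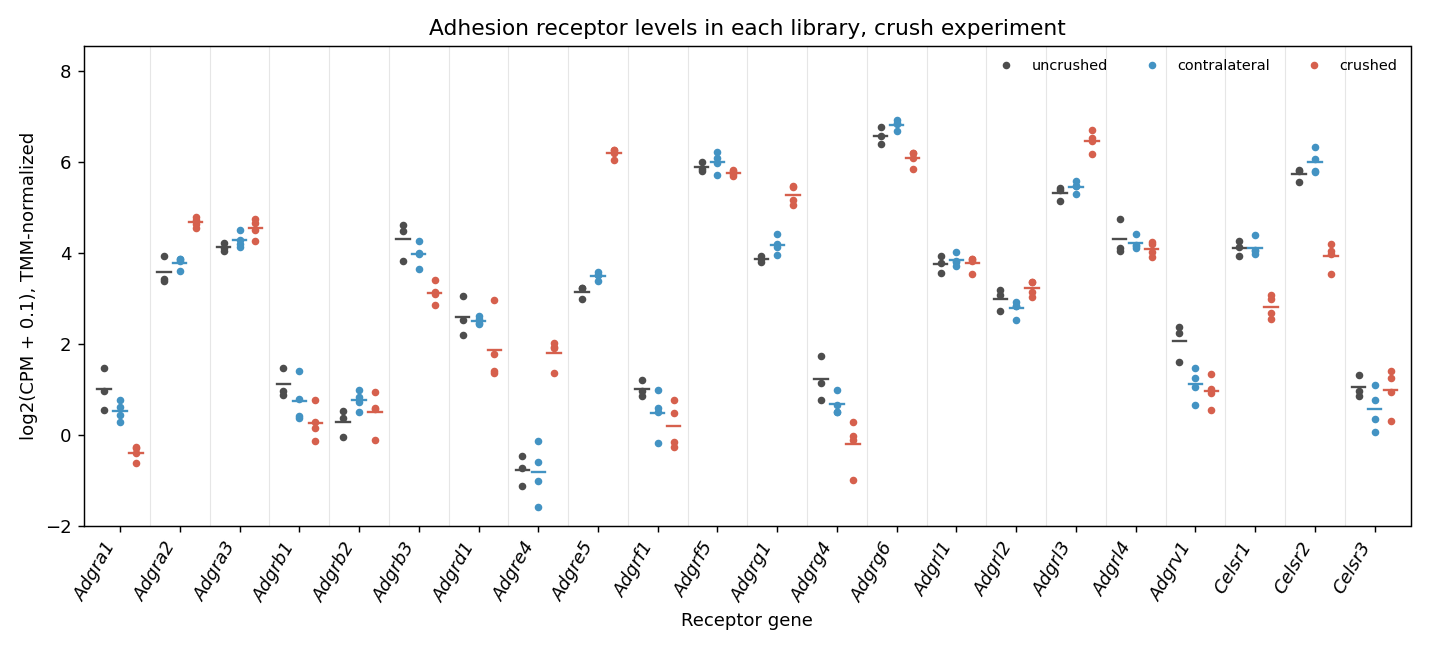
Level of each tested member in every library of the crush experiment, as log2(CPM + 0.1), with 1 point per library and a bar at the mean of the log values for uncrushed (n = 3), contralateral (n = 4) and crushed (n = 4) nerves. The crushed libraries lie above both control groups for Adgre5, with 66.0 to 77.2 CPM against 7.84 to 11.9 CPM, and below both for Celsr2, with 11.6 to 18.5 CPM against 47.5 to 81.3 CPM.

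The leukocyte receptor Adgre5 rose in both comparisons. This gene (Cd97; chr8:83723251-83741326, minus strand), which binds Cd55 and Thy1, had 9.35, 9.26 and 7.84 CPM in uncrushed nerves, 11.4, 10.4, 11.9 and 11.4 CPM in contralateral nerves and 76.7, 77.2, 73.3 and 66.0 CPM in crushed nerves. Every crushed library was far above every control library, and the contralateral libraries were all above the uncrushed ones. On the log2 scale the fold change was 3.14 ± 0.11 (SE) against uncrushed (adjusted p = 5.45e-10) and 2.72 ± 0.08 against contralateral nerves (adjusted p = 2.41e-12). Adgre4 (Emr4), a receptor of macrophages and dendritic cells, was scarce, with 0.360 to 0.625 CPM in uncrushed, 0.236 to 0.820 CPM in contralateral and 2.49, 3.75, 3.67 and 3.96 CPM in crushed nerves. Every crushed library was above every control library, on few counts. Since the gene was kept only where crushed nerves were included, these values are a description and its test is not given.

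Markers of macrophages and neutrophils moved with these receptors, and no lymphocyte marker was called higher. Adgre1 itself stood at 5.66 to 8.01 CPM in uncrushed, 3.30 to 9.24 CPM in contralateral and 26.7 to 68.7 CPM in crushed nerves. All 10 macrophage markers were called higher in both comparisons, with a summed level of 129 to 137 CPM in uncrushed, 82.5 to 162 CPM in contralateral and 505 to 939 CPM in crushed nerves. Neutrophil markers summed to 5.50 to 14.5 CPM in both control groups and up to 35.4 CPM in crushed nerves, with 1 of 3 tested called higher against uncrushed and 2 of 2 against contralateral nerves. Lymphocyte markers summed to 5.02 to 12.3 CPM in both control groups and 3.53 to 5.13 CPM in crushed nerves, with 2 of 3 tested called lower against uncrushed and 0 of 2 called against contralateral nerves. The part of these cells in the levels of Adgre5 and Adgre4 was not tested. Another measure moves with Adgre5 as well, since 23.8% of its exon bases lie opposite exons of Ddx39, an RNA helicase gene on the other strand, and the strand setting of the counting is not given in the sources used here. Ddx39 had 6.88 to 10.2 CPM in uncrushed, 7.90 to 9.83 CPM in contralateral and 19.8 to 24.2 CPM in crushed nerves. Its part in the counts of Adgre5 was not tested. Of the ligands listed for Adgre5, Thy1 rose (log2 fold change 3.11 against uncrushed and 3.08 against contralateral) and Cd55, a complement inhibitor, fell (-2.59 and -2.92), from 83.7 to 99.6 CPM in uncrushed to 13.1 to 16.0 CPM in crushed nerves. The integrin gene Itgb3 was called higher against uncrushed nerves (1.08) and stayed under 2-fold against contralateral nerves (0.89), so that 2 of the 4 listed genes were called higher and 1 lower there, and 1 and 1 against contralateral nerves.

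Adgrg1 (Gpr56) signals through G12/13 and binds collagen III and transglutaminase 2. Its level was 13.9, 14.6 and 15.3 CPM in uncrushed, 15.6, 21.4, 18.4 and 17.4 CPM in contralateral and 44.1, 35.8, 44.2 and 33.3 CPM in crushed nerves. The 3 groups did not overlap, with uncrushed nerves lowest and crushed nerves highest. It rose by a log2 fold change of 1.53 ± 0.13 against uncrushed (adjusted p = 5.05e-07) and 1.12 ± 0.12 against contralateral nerves (adjusted p = 1.51e-06). Tgm2, its transglutaminase ligand, rose with log2 fold changes of 1.91 and 1.80, from 17.9 to 23.1 CPM in uncrushed to 53.8 to 85.6 CPM in crushed nerves, whereas Col3a1 passed the adjusted threshold downwards with -0.54 against uncrushed and -0.35 against contralateral nerves, under 2-fold. Of the 9 genes listed for G12/13 signalling and engulfment, Gna13 was called higher in both comparisons (1.47 and 1.32), Dock1 higher against uncrushed nerves (1.06) and Gna12 lower against contralateral nerves (-1.12).

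The window before the downstream start site of Adgrg1 is shown because it holds matches to the AP-1 motif, the letters bound by the injury-response factor Jun and its partners. Windows of 2 further members hold such a match, Adgrg4, which was scarce and lower in crushed nerves, and Adgrf4, which was not tested. The window shown covers the 250 bases before that start site in RefSeq (GRCm38.p6, chr8:94984149-94984398, plus strand), and the capitals mark 2 matches to TGANTCA at positions -141 and -59 from the start site and 1 match to TGACG, read on the other strand, at -103.
Adgrg1 downstream promoter: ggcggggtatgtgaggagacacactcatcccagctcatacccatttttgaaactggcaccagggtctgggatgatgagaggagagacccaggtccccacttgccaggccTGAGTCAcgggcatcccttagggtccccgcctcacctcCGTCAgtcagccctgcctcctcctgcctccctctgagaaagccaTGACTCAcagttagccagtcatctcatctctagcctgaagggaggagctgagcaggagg
All windows were searched on both strands for TGANTCA (AP-1), TGACG (CRE half-site), ACAAAG (SOX), GCGTGGG (EGR) and CCGGAAG (ETS), which occur in 6.75%, 17.8%, 16.5%, 4.3% and 6.91% of 32851 RefSeq windows of the same length. The upstream start site of Adgrg1 has 1 ACAAAG match, at -80. A match is a description of the letters and no evidence of binding, and no binding was measured here. Entries were present for 22 of the 29 members.

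Adgrl3, the latrophilin that leads the group in the nerve and binds teneurins and FLRT proteins, also rose. It had 35.2, 43.1 and 41.8 CPM in uncrushed, 44.5, 48.1, 44.3 and 39.5 CPM in contralateral and 105, 88.9, 92.2 and 72.1 CPM in crushed nerves, with every crushed library above every control. Its log2 fold change was 1.27 ± 0.13 against uncrushed (adjusted p = 3.01e-06) and 1.03 ± 0.11 against contralateral nerves (adjusted p = 8.43e-07). The second value lies just past the 2-fold threshold and was 0.98 without contralateral replicate 4, 0.91 without crushed replicate 1 and 0.99 without crushed replicate 3, each still past the adjusted threshold. Adgrl2 passed the adjusted threshold against contralateral nerves (0.46 ± 0.14, adjusted p = 0.00873), and Adgrl1 had log2 fold changes of 0.11 and -0.06 that passed in neither comparison. The antisense gene Gm16054 lies opposite 8.91% of the exon bases of Adgrl3.

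The ligands of latrophilins changed in both directions. Of 10 listed teneurin, FLRT and neurexin genes, 2 were called higher and 4 lower against uncrushed nerves, and 2 higher and 2 lower against contralateral nerves. Tenm3, a teneurin, rose by log2 fold changes of 2.54 and 2.25, from 76.7 to 84.5 CPM in uncrushed to 367 to 469 CPM in crushed nerves, and Flrt3 rose by 1.93 and 1.62. Nrxn2, a neurexin, fell by 2.98 and 2.73 on the log2 scale and Flrt1 fell by 2.10 and 1.83.

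The Celsr cadherins fell. Celsr2, a planar cell polarity receptor and the main Celsr gene of the nerve, had 56.2, 56.4 and 47.5 CPM in uncrushed, 55.3, 81.3, 66.9 and 56.1 CPM in contralateral and 18.5, 15.6, 16.4 and 11.6 CPM in crushed nerves. No crushed library came near a control library. Its log2 fold change was -1.68 ± 0.14 against uncrushed (adjusted p = 4.76e-07) and -2.05 ± 0.15 against contralateral nerves (adjusted p = 2.16e-08). Celsr1, its paralog, had 15.3 to 19.1 CPM in uncrushed, 15.8 to 21.0 CPM in contralateral and 5.75 to 8.35 CPM in crushed nerves and fell by 1.18 ± 0.15 and 1.29 ± 0.15 on the log2 scale (adjusted p = 2.35e-05 and 2.12e-06), the first -0.95 without a filter on low counts. Celsr3 stayed at 0.943 to 2.54 CPM in all libraries, with overlapping groups and log2 fold changes of 0.10 and 0.46 that did not pass.

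The partners of Celsr in planar cell polarity followed in part. Of 9 listed genes, Prickle2 (-2.41 and -2.65), Fzd3 (-1.65 and -1.95) and Prickle1 (-1.37 and -1.55) were called lower and the frizzled gene Fzd6 was called higher (1.13 and 1.14) in both comparisons. Prickle2 had 116 to 135 CPM in uncrushed and 15.9 to 24.7 CPM in crushed nerves. The summed level of the 9 genes was 308 to 341 CPM in uncrushed, 349 to 393 CPM in contralateral and 148 to 164 CPM in crushed nerves. All 8 myelinating SC markers were called lower in the same libraries, with a sum of 1007 to 1591 CPM in crushed nerves against 39869 to 54752 CPM in both control groups, and their part in the fall of Celsr2 and its partners was not tested.

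Adgrg6 (chr10:14402583-14545659, minus strand), the receptor that starts myelination, was lower after crush, by less than 2-fold. It had 84.8, 110 and 94.8 CPM in uncrushed nerves, 114, 122, 116 and 103 CPM in contralateral nerves and 73.5, 73.5, 68.6 and 57.6 CPM in crushed nerves. Every crushed library lay below every control library. It fell by 0.39 ± 0.11 on the log2 scale against uncrushed (95% interval -0.64 to -0.15, adjusted p = 0.0079) and by 0.72 ± 0.09 against contralateral nerves (-0.91 to -0.53, adjusted p = 5.06e-06), and was called in neither comparison. The summed level of 6 markers that SCs of all states share, Sox10 among them, also moved, from 2197 to 2452 CPM in uncrushed and 2449 to 3027 CPM in contralateral to 1566 to 2002 CPM in crushed nerves. Of these 6 genes, 1 was called higher and 1 lower against uncrushed nerves and 0 higher and 2 lower against contralateral nerves, and their part in the fall of Adgrg6 was not tested.

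The RefSeq window before the start site of Adgrg6 is shown because this receptor signals through cAMP and the window holds 1 match to TGACG, the core of the element bound by cAMP-response factors. It spans 250 bases (GRCm38.p6, chr10:14545037-14545286, minus strand, written in the direction of the gene), is 69.6% G or C with 32 CpG pairs, and has the match in capitals at position -9.
Adgrg6 promoter: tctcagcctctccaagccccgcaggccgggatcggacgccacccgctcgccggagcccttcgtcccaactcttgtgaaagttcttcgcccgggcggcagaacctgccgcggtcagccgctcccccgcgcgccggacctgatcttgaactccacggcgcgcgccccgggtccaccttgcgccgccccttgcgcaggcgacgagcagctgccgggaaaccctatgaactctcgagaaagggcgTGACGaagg
As given above, 17.8% of all windows hold these letters, and no binding was measured.

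Most of the listed ligands of Adgrg6 fell past 2-fold. Of 10 listed genes, which encode collagen IV chains, the laminin-211 chains and the prion protein, 9 were called lower and 0 higher against uncrushed nerves and 8 of the 9 tested were called lower against contralateral nerves. Their median log2 fold change was -1.41 and -1.48, and their summed level was 3285 to 3532 CPM in uncrushed, 3325 to 4154 CPM in contralateral and 1319 to 1572 CPM in crushed nerves, without overlap. The collagen genes Col4a1 and Col4a2 had log2 fold changes of -1.04 and -1.15 against uncrushed and -1.28 and -1.43 against contralateral nerves. The laminin chains Lama2 (-1.52 and -1.69) and Lamb1 (-1.35 and -1.54) and the prion gene Prnp (-1.58 and -1.73) fell as well. Among the scarcer chains Col4a3 fell by 2.12 and 1.77, Col4a4 by 1.18 and 1.17 and Col4a5 by 1.48 in both comparisons on the log2 scale, and Col4a6, tested against uncrushed nerves alone, by 1.66. Lamc1 was the exception, with -0.59 and -0.61, which passed the adjusted threshold and stayed under 2-fold.

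Genes on the path from Adgrg6 to myelin changed in both directions. Of 17 listed Gs and cAMP genes, 2 were called higher and 4 lower against uncrushed nerves and 2 higher and 3 lower against contralateral nerves. The adenylyl cyclase gene Adcy1 fell by 3.53 and 3.82 on the log2 scale, from 386 to 432 CPM in uncrushed to 27.0 to 38.5 CPM in crushed nerves, and Adcy8 fell by 2.92 and 3.33, while Adcy7, a cyclase also of leukocytes, rose by 2.39 and 2.32 and Adcy4 by 1.15 and 1.03. Of 10 phosphodiesterase genes, whose products break down cAMP, 4 were called higher and 1 lower in both comparisons, led by Pde3b (3.28 and 3.13), Pde8a (3.10 and 2.98) and Pde4b (2.85 and 2.46), with Pde4c the one that fell (-1.53 and -1.02). Of the genes listed downstream of Adgrg6 in myelination, Pou3f1, the transcription factor of promyelinating SCs, was called higher (2.04 and 1.55) and Egr2, Mbp, Pmp22 and Prx were called lower.

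**Figure D2:**
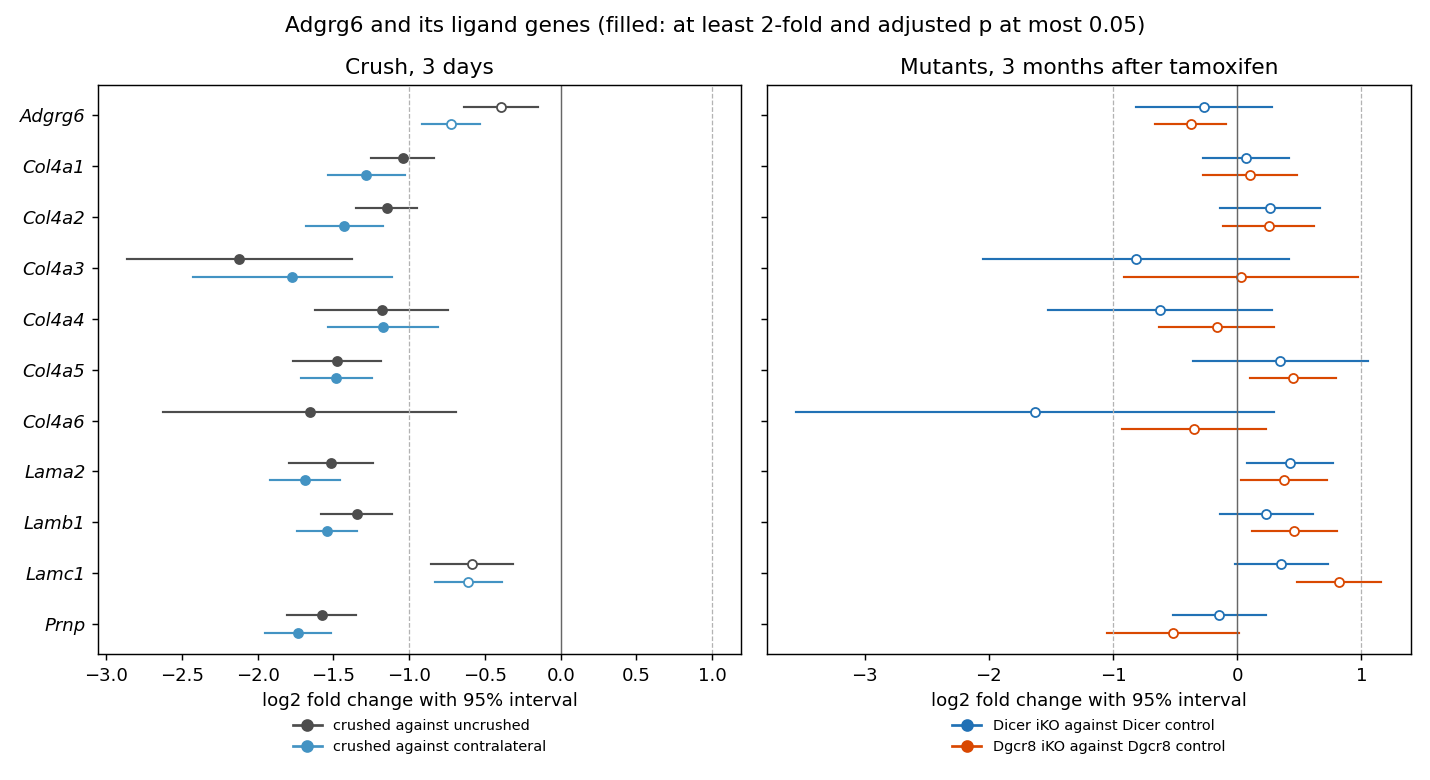
Log2 fold changes of Adgrg6 and of the 10 genes of its listed ligands in the comparisons of crushed and mutant nerves, with lines for the 95% intervals, filled symbols for genes called and dashed lines at 1 and -1. After crush, 9 of the 10 ligand genes lie beyond -1 against uncrushed nerves while Adgrg6 is at -0.39, and none of them was called in either mutant.

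The Adgra group holds a receptor of the Wnt pathway. Adgra2 (Gpr124), which with Reck forms a co-receptor for Wnt7 in brain endothelium, had 15.3, 10.6 and 10.4 CPM in uncrushed, 12.1, 14.1, 14.5 and 14.5 CPM in contralateral and 23.4, 27.5, 26.3 and 24.9 CPM in crushed nerves. Every crushed library lay above the controls, with a log2 fold change of 1.15 ± 0.15 against uncrushed (adjusted p = 2.37e-05) and 0.90 ± 0.09 against contralateral nerves (adjusted p = 9.91e-07), the second under 2-fold. Its partner Reck fell by 1.67 and 1.78, from 27.2 to 30.4 CPM in uncrushed to 7.07 to 9.54 CPM in crushed nerves, and Wnt7b rose by 4.43 and 3.56, with 0.341 CPM in the lowest uncrushed and 7.22 CPM in the lowest crushed library. Adgra3 (Gpr125), an orphan receptor, passed the adjusted threshold with small rises of 0.53 ± 0.12 and 0.28 ± 0.12 (adjusted p = 0.00233 and 0.049), the second with an adjusted p of 0.0823 with the replicate number as a block. Adgra1 (Gpr123), a receptor with little extracellular sequence, was scarce, at 1.38 to 2.70 CPM in uncrushed and 0.550 to 0.733 CPM in crushed nerves. Every crushed library was below every control library, on few counts. The gene passed the filter on low counts through the control nerves, so these values are a description and its test is not given. Its log2 fold changes were -1.48 against uncrushed and -0.99 against contralateral nerves. The second passed 2-fold, by up to -1.06, without contralateral replicate 1 or 2 or crushed replicate 1 or 2.

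In the Adgrb group, Adgrb3 (Bai3), a synaptic receptor for C1q-like proteins, fell. It had 14.0, 22.4 and 24.5 CPM in uncrushed, 15.9, 12.6, 15.7 and 19.3 CPM in contralateral and 8.75, 8.55, 7.15 and 10.6 CPM in crushed nerves, and the crushed libraries lay below all others. It fell by 1.09 ± 0.19 on the log2 scale against uncrushed nerves (adjusted p = 0.000359), which became -0.96 without uncrushed replicate 2 and -0.94 without uncrushed replicate 3, and by 0.83 ± 0.15 against contralateral nerves (adjusted p = 0.000187). Of the 5 listed ligands of the group, 1 was tested against uncrushed and 2 against contralateral nerves, and 1 was called, Rtn4r, the Nogo receptor, against contralateral nerves (-1.67). Adgrb1 (Bai1), a receptor for apoptotic cells, had 0.815 to 2.70 CPM and did not pass, with -0.81 on the log2 scale against uncrushed (adjusted p = 0.0501) and -0.52 against contralateral nerves (adjusted p = 0.171). Without crushed replicate 1 the first value was -1.05 (adjusted p = 0.0207). Adgrb2 did not pass in either comparison, with 0.35 and -0.22.

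Endothelial receptors did not pass the test after crush. Adgrf5 (Gpr116), known from surfactant control in the lung and from vessel walls, had 56.1 to 64.0 CPM in uncrushed, 52.3 to 75.0 CPM in contralateral and 51.6 to 56.5 CPM in crushed nerves, with log2 fold changes of -0.02 (95% interval -0.22 to 0.18) and -0.24 (-0.46 to -0.01, adjusted p = 0.0587). Adgrl4 (Eltd1), a receptor of growing vessels, had 16.4 to 26.9, 17.4 to 21.5 and 14.9 to 18.9 CPM in uncrushed, contralateral and crushed nerves and log2 fold changes of -0.17 (-0.55 to 0.21) and -0.11 (-0.34 to 0.12). The sum of 10 endothelial markers was 188 to 231, 191 to 226 and 231 to 282 CPM in the same groups, and 3 of the 10 were called higher and 0 lower in both comparisons.

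Among the remaining scarce members, Adgrv1 (Vlgr1), a very large receptor of hair cells and retina, was lower in crushed than in uncrushed nerves alone, with 2.97, 4.63 and 5.11 CPM in uncrushed, 1.49 to 2.67 CPM in contralateral and 1.38 to 2.45 CPM in crushed nerves. It fell by 1.03 ± 0.28 on the log2 scale (adjusted p = 0.00619), against -0.13 (adjusted p = 0.676) for contralateral nerves, and the first value was -0.91, -0.90 and -0.88 without crushed replicate 3, uncrushed replicate 2 and uncrushed replicate 3. Adgrg4 (Gpr112), an orphan receptor of enterochromaffin cells, had 1.62 to 3.24 CPM in uncrushed and 0.407 to 1.13 CPM in crushed nerves, on few counts. Like Adgra1, it passed the filter on low counts through the control nerves, so its test is not given. Its log2 fold changes of -1.36 and -0.89 (-1.08 without crushed replicate 4) are a description. Adgrf1 (Gpr110), a receptor of a fatty acid amide, had log2 fold changes of -0.68 and -0.25 that did not pass. Adgrd1 (Gpr133), a Gs-coupled receptor, had 7.70, 3.34, 2.48 and 2.54 CPM in crushed nerves and 4.50 to 8.18 CPM in both control groups. Its log2 fold change was -0.46 in both comparisons (adjusted p = 0.294 and 0.19), and without crushed replicate 1, the library at 7.70 CPM, it was -1.03 in both (adjusted p = 0.00484 and 0.000175).

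The nerves of operated mice that were not crushed were compared with surgery controls to see whether the family differed between the 2 kinds of control. By edgeR's QL test, 0 of 21 members and 0% of 17722 genes were called, and 17.9% of all genes had an unadjusted p under 0.05. By DESeq2's Wald test 20 genes were called, none of them a member. The libraries did not overlap for 3 members (15.7% of all genes), Adgre5 and Adgrg1 higher and Adgrv1 lower in contralateral nerves. Their log2 fold changes were 0.33 for Adgre5, 0.32 for Adgrg1 and -0.99 for Adgrv1 (adjusted p = 0.142). Adgrg6 was 0.24 higher on the log2 scale (95% interval 0.02 to 0.45, adjusted p = 0.246).

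To ask what induced deletion of Dicer or Dgcr8 in adult SCs does to the family, each mutant was compared with its own controls by the same test. In Dicer iKO, 2 of 17 members tested were called higher and 1 lower, where 7.37% and 1.64% of all 13045 genes tested were. In Dgcr8 iKO, 4 of 17 were called higher and 2 lower, where 13.4% and 6.99% of all 13252 genes were. By adjusted p alone, 5 members rose and 4 fell in Dicer iKO (21.2% of all genes passed in either direction), and 8 rose and 4 fell in Dgcr8 iKO (44.5%). The libraries did not overlap for 7 members higher and 4 lower in Dicer iKO (41.9% of all genes in either direction) and for 6 higher and 4 lower in Dgcr8 iKO (55.9%). The median log2 fold change of the tested members was 0.20 in Dicer iKO and 0.50 in Dgcr8 iKO, beside -0.01 for all genes tested in each. Adgre5 and Adgrl1 were called higher in both mutants and no member was called lower in both.

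**Figure D3:**
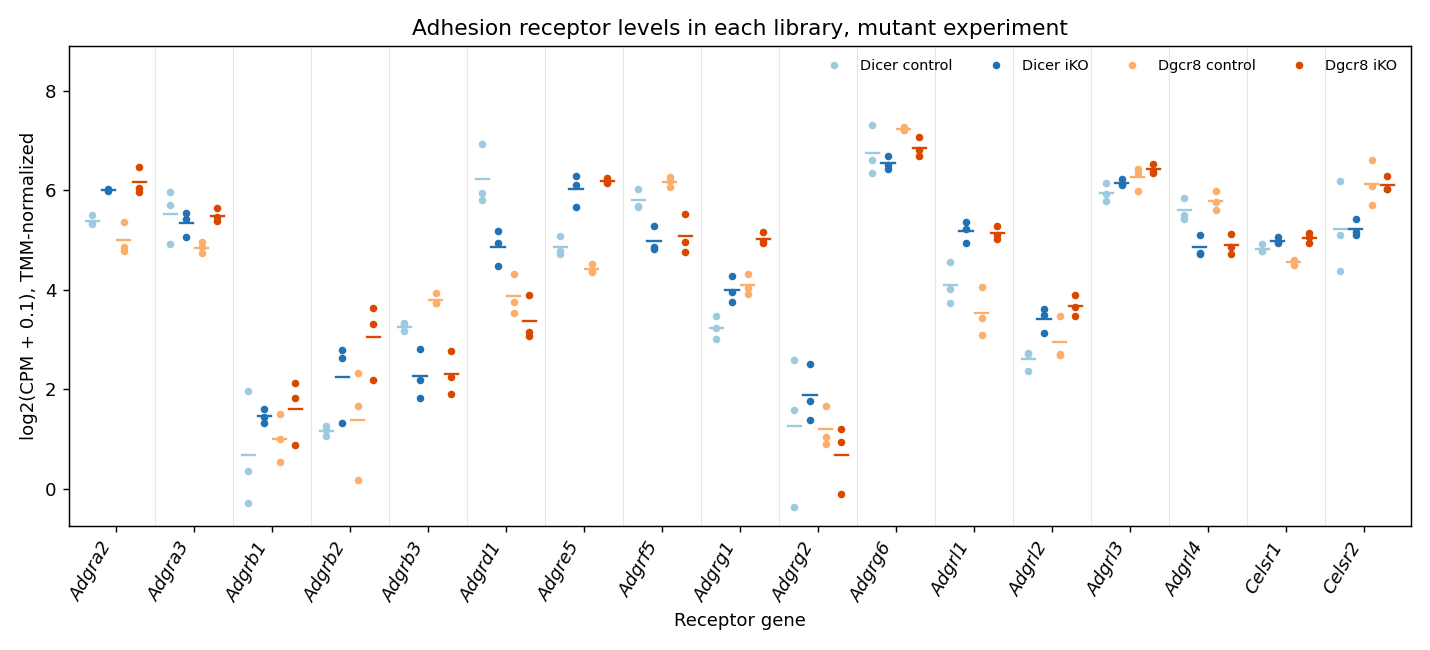
Level of each tested member in every library of the iKO experiment, as log2(CPM + 0.1), with 1 point per library and a bar at the mean of the log values for controls and iKO of each gene (n = 3 per group). Adgre5 in Dgcr8 iKO lies between 71.0 and 75.8 CPM, above its controls at 20.3 to 22.9 CPM, and Adgrf5 lies below its controls in both mutants.

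Since both mutants were made to lose a gene of miRNA biogenesis in SCs, matches to miRNA seeds are shown for the members that the mutant results turn on. The miRNAs are those the study named among the abundant ones of the nerve. The mature sequences below are from RefSeq (GRCm38.p6), and capitals mark the seed, bases 2 to 8, which miR-10a and miR-10b share.
mmu-let-7f-5p: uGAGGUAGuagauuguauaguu
mmu-miR-27b-3p: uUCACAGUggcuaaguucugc
mmu-miR-26a-5p: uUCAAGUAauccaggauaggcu
mmu-miR-181a-5p: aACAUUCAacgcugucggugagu
mmu-miR-10a-5p: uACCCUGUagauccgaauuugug
mmu-miR-10b-5p: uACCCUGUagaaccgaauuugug
mmu-miR-22-3p: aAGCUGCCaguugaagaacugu

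The 3′ UTR of the most used protein-coding transcript of each of the 17 tested members was taken from the GENCODE M21 transcripts and searched for the reverse complement of each seed, on the transcript's strand. Each line gives the match in capitals with its neighbouring bases, in the direction of the gene.
Adgrl1 with the miR-10 seed, chr8:83939255-83939276, plus strand: gttagtagACAGGGTttccacc
Adgra2 with the miR-22 seed, chr8:27122560-27122581, plus strand: gtgtggtgGGCAGCTctagaga
Adgrb3 with the miR-181a seed, chr1:25067732-25067753, minus strand: tcattaaaTGAATGTttgttga
Adgrf5 with the miR-10 seed, chr17:43455364-43455385, plus strand: tctccgaaACAGGGTccgtggc
Adgrl4 with the miR-181a seed, chr3:151543600-151543621, plus strand: gaaatataTGAATGTcctcaag
Adgrg6 with the miR-181a seed, chr10:14404496-14404517, minus strand: aatccagtTGAATGTggacatt
Celsr1 with the miR-26a seed, chr15:85900106-85900127, minus strand: cacagttgTACTTGAatctgga

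Matches occurred in members that rose in a mutant (Adgrl1, Adgra2, Celsr1) and in members that fell (Adgrb3, Adgrf5, Adgrl4, Adgrg6), and Celsr2, which passed in neither mutant, had 1 for miR-26a. Adgre5, Adgrg1, Adgrl2, Adgrb2 and Adgra3, which rose, had none, and neither had Adgrd1, which fell in Dicer iKO. The 3′ UTRs searched differed in length, so an absent match does not compare between members. Those of Adgrb2 and Adgra3 had 295 and 316 bases, that of Adgrd1 2040, and those of Adgrg6 and Adgrf5 2888 and 4222. Adgrg6 also held 2 matches for miR-27b, Adgrl4 1 for miR-26a and Adgrf5 1 for miR-22. Of these 12 matches, 4 lie in the first 500 bases after the stop codon and the others farther on. The 3′ UTR of Adgrb3, at 490 bases, is shorter than this window, unlike those counted next. In the first 500 bases of 9352 3′ UTRs, ACAGGGT was found in 4.69%, TGAATGT in 6.39%, GGCAGCT in 6.18%, TACTTGA in 3.56%, ACTGTGA (miR-27b) in 6.52% and CTACCTC (let-7f) in 3.2%. A match is a description and not a measured target site, and other transcripts of these genes were not searched.

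Adgre5 rose in both mutants, as it did after crush. It had 33.5, 27.4 and 26.2 CPM in Dicer controls and 50.3, 68.3 and 78.4 CPM in Dicer iKO, and 20.3, 20.7 and 22.9 CPM in Dgcr8 controls and 75.8, 71.0 and 71.7 CPM in Dgcr8 iKO. Neither pair of groups overlapped. Its log2 fold change was 1.18 ± 0.18 in Dicer iKO (adjusted p = 0.00591) and 1.77 ± 0.12 in Dgcr8 iKO (adjusted p = 2.39e-06). With a term for the sex of the mouse the Dicer value was 1.10 (adjusted p = 0.0223). Leukocyte markers moved with it here too, with 7 of 10 macrophage markers called higher in Dicer iKO and 8 of 10 in Dgcr8 iKO and a summed level of 237 to 708 against 1256 to 2057 CPM and of 255 to 294 against 949 to 2093 CPM. Adgre1 alone had 18.6 to 56.9 against 160 to 231 CPM in the Dicer comparison and 19.9 to 22.1 against 108 to 214 CPM in the Dgcr8 comparison. Lymphocyte markers summed to 0.540 to 3.59 against 11.7 to 28.1 CPM and to 0.272 to 0.518 against 19.2 to 26.1 CPM, and neutrophil markers to 1.89 to 6.18 against 19.2 to 31.4 CPM and to 1.65 to 2.86 against 19.3 to 32.9 CPM. The part of these cells in the rise of Adgre5 was not tested. The overlapping gene Ddx39 was called higher in Dgcr8 iKO, with 20.2 to 31.4 against 10.6 to 13.2 CPM. In Dicer iKO it had 16.4 to 18.8 against 11.6 to 13.6 CPM, without overlap, and was not called (0.48 on the log2 scale, adjusted p = 0.0546).

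Of the ligands listed for Adgre5, Thy1 and Itgb3 were called higher in both mutants, with log2 fold changes of 1.88 and 1.42 in Dicer iKO and 2.01 and 2.36 in Dgcr8 iKO. Cd55 was called lower in Dgcr8 iKO (-1.45). Adgre4 was at most 1.3 CPM in any library of this experiment and was not tested.

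The latrophilins Adgrl1 and Adgrl2 rose in the mutants. Adgrl1, whose miR-10 seed match is shown above, had 23.4, 16.0 and 13.2 CPM in Dicer controls and 30.7, 37.3 and 41.1 CPM in Dicer iKO, and 10.7, 16.5 and 8.40 CPM in Dgcr8 controls and 34.3, 32.2 and 38.7 CPM in Dgcr8 iKO. The groups did not overlap, with a log2 fold change of 1.05 ± 0.22 in Dicer iKO (adjusted p = 0.0158) and 1.58 ± 0.21 in Dgcr8 iKO (adjusted p = 0.000164). The Dicer value lies just past 2-fold, and the call was lost without Dicer control replicate 2 (0.99, adjusted p = 0.0702) or 3 (0.89, adjusted p = 0.0188) and without Dicer iKO replicate 2 (1.05, adjusted p = 0.0651) or 3 (0.97, adjusted p = 0.0736). Adgrl2 passed the adjusted threshold under 2-fold in both mutants (0.82 ± 0.22, adjusted p = 0.0337, and 0.69 ± 0.24, adjusted p = 0.0366). Adgrl3, which rose after crush, had 55.2 to 70.3 CPM in Dicer controls, 68.5 to 74.9 CPM in Dicer iKO, 63.5 to 86.1 CPM in Dgcr8 controls and 81.1 to 92.0 CPM in Dgcr8 iKO, with overlap in each comparison and log2 fold changes of 0.20 (95% interval -0.07 to 0.46) and 0.15 (-0.14 to 0.45) that did not pass. The gene Gm10644 lies opposite 12.9% of the exon bases of Adgrl1 and had at most 4.02 CPM.

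Of the latrophilin ligands, 2 of 9 tested were called higher and 1 lower in Dicer iKO, and 4 and 3 in Dgcr8 iKO. Tenm4 (3.57 in Dicer iKO and 2.77 in Dgcr8 iKO) and Tenm1 (2.92 and 3.43) rose in both, and Tenm3, which rose after crush, was called higher in Dgcr8 iKO (1.28).

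Adgrg1 passed the adjusted threshold upwards in both mutants under 2-fold. It had 9.34, 7.93 and 10.9 CPM in Dicer controls and 15.4, 13.5 and 19.4 CPM in Dicer iKO, and 16.3, 19.7 and 15.0 CPM in Dgcr8 controls and 31.5, 30.5 and 35.5 CPM in Dgcr8 iKO. Mutant libraries were above their own controls in both comparisons. Log2 fold changes were 0.78 ± 0.20 (adjusted p = 0.0319) in Dicer iKO and 0.94 ± 0.15 (adjusted p = 0.000429) in Dgcr8 iKO, and the second was 1.04 without Dgcr8 control replicate 2. Its ligand gene Col3a1 was called higher in both mutants (1.73 and 1.42), and Tgm2 in Dgcr8 iKO (1.11). Fibroblast markers moved with Col3a1, with a summed level of 6233 to 7915 CPM in Dgcr8 controls and 12972 to 16125 CPM in Dgcr8 iKO, where 5 of 7 were called higher. In the Dicer comparison the sum was 5350 to 14167 against 16655 to 17417 CPM, with 2 of 7 called higher, and their part in the rise of Col3a1 was not tested.

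Adgrg6 fell in Dgcr8 iKO by less than 2-fold and did not pass the test in Dicer iKO. It had 81.2, 96.8 and 159 CPM in Dicer controls and 103, 90.2 and 85.8 CPM in Dicer iKO, with overlap, and 149, 153 and 148 CPM in Dgcr8 controls and 111, 134 and 103 CPM in Dgcr8 iKO, without overlap. The log2 fold change in Dicer iKO was -0.27 (95% interval -0.82 to 0.28, adjusted p = 0.447), an interval wide enough to hold the change seen after crush against uncrushed nerves. In Dgcr8 iKO it fell by 0.37 ± 0.13 (-0.66 to -0.09, adjusted p = 0.0356), under 2-fold. The 10 ligand genes had 0 called in either mutant and a median log2 fold change of 0.15 and 0.18, and in Dgcr8 iKO 3 passed the adjusted threshold upwards. Their summed level was 4949 to 5472 CPM in Dgcr8 controls and 6020 to 6432 CPM in Dgcr8 iKO, without overlap. Of these genes downstream of Adgrg6, 0 were called in Dicer iKO, and in Dgcr8 iKO Pou3f1 was called higher (1.55) and Mbp, Pmp22 and Prx lower. Myelinating SC markers summed to 13760 to 27371 CPM in Dgcr8 iKO against 42969 to 44783 CPM in their controls, with 4 of 8 called lower. Among the cAMP genes, Adcy7 rose (2.37 and 2.77) and Adcy1 (-1.19 and -1.66) and Prkar2b (-1.92 and -1.65), a subunit of protein kinase A, fell in both mutants, Adcy3 rose in Dgcr8 iKO (1.99), and the phosphodiesterase genes Pde3b (1.35 and 1.96) and Pde8a (1.03 and 1.75) were called higher in both.

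**Figure D4:**
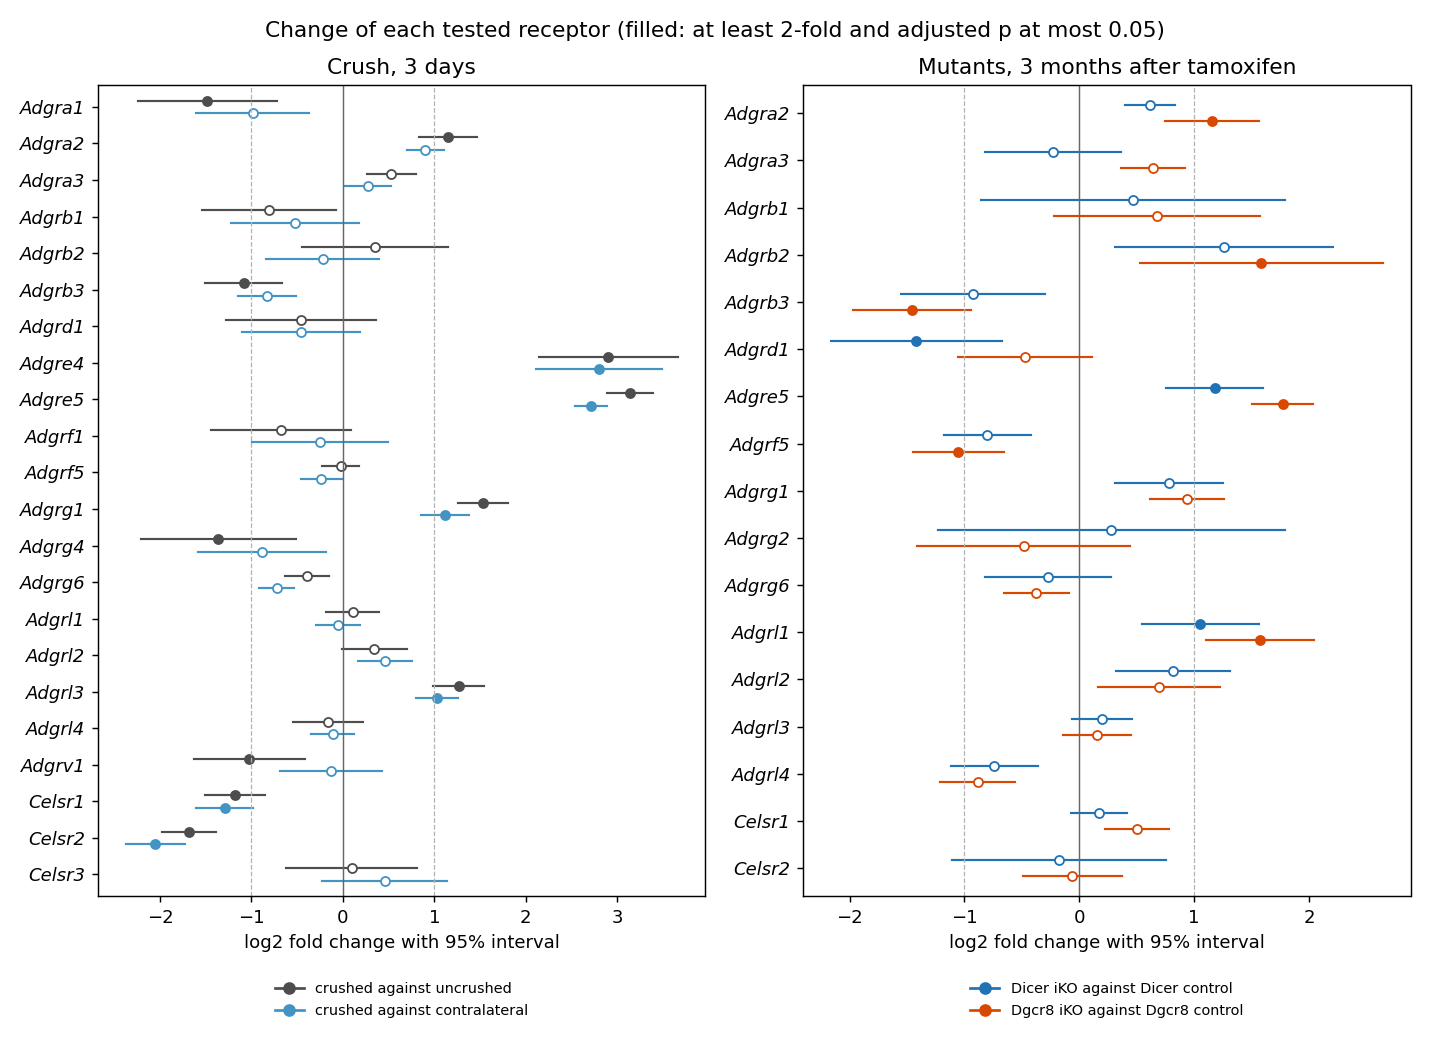
Log2 fold change of every tested member in the comparisons of crushed nerves with both controls and of each mutant with its controls, with lines for the 95% intervals, filled symbols for members called and dashed lines at 1 and -1. Adgre5 is called higher in all of them, at 3.14 and 2.72 after crush and 1.18 and 1.77 in the mutants, while Celsr2 lies at -1.68 and -2.05 after crush and at -0.18 and -0.06 in the mutants.

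The endothelial receptors fell in both mutants. Adgrf5, with a miR-10 seed match shown above, had 51.6, 50.6 and 64.9 CPM in Dicer controls and 38.6, 28.1 and 28.8 CPM in Dicer iKO, and 66.9, 76.5 and 72.5 CPM in Dgcr8 controls and 26.9, 46.0 and 31.0 CPM in Dgcr8 iKO. Each mutant group lay wholly below its controls. Log2 fold changes were -0.80 ± 0.16 in Dicer iKO (adjusted p = 0.0147, under 2-fold) and -1.05 ± 0.18 in Dgcr8 iKO (adjusted p = 0.000714), the latter -0.90 without Dgcr8 iKO replicate 1 and -0.98 without replicate 3. Adgrl4 had 45.1, 43.0 and 57.4 CPM in Dicer controls and 34.3, 26.4 and 26.2 CPM in Dicer iKO, and 54.1, 48.7 and 63.1 CPM in Dgcr8 controls and 29.0, 34.8 and 26.2 CPM in Dgcr8 iKO. It also did not overlap its controls and fell by 0.74 ± 0.16 (adjusted p = 0.0189) and 0.88 ± 0.15 (adjusted p = 0.000667) on the log2 scale, under 2-fold in both. The 10 endothelial markers moved the same way, from 358 to 401 to 255 to 295 CPM in the Dicer comparison and from 421 to 492 to 285 to 354 CPM in the Dgcr8 comparison, with medians of -0.44 and -0.42. Of these markers 0 and 1 were called lower, 1 and 5 passed the adjusted threshold downwards, and their part in the fall of Adgrf5 and Adgrl4 was not tested.

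Adgra2, the Wnt7 co-receptor, rose in both mutants. It had 45.4, 40.2 and 39.9 CPM in Dicer controls and 64.4, 63.0 and 64.5 CPM in Dicer iKO, and 28.8, 41.1 and 27.2 CPM in Dgcr8 controls and 65.5, 62.0 and 88.8 CPM in Dgcr8 iKO. The groups were apart in both comparisons, and the receptor rose by 0.62 ± 0.10 (adjusted p = 0.00605, under 2-fold) and 1.16 ± 0.19 on the log2 scale (adjusted p = 0.000483), the second 0.98 without Dgcr8 iKO replicate 3. Of its 6 listed partners, 4 were tested and 0 were called in either mutant. Adgra3 had 61.9, 52.1 and 30.3 CPM in Dicer controls and 33.4, 42.8 and 46.5 CPM in Dicer iKO, which overlapped (-0.23, adjusted p = 0.55), and rose in Dgcr8 iKO by 0.65 ± 0.13 (adjusted p = 0.0018), from 26.4, 28.8 and 30.8 to 41.3, 49.6 and 43.9 CPM.

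The brain angiogenesis inhibitor group moved in opposite directions. Adgrb3 fell, from 9.91, 9.65 and 8.92 CPM in Dicer controls to 6.92, 3.45 and 4.43 CPM in Dicer iKO and from 13.2, 15.1 and 13.3 CPM in Dgcr8 controls to 3.66, 6.68 and 4.67 CPM in Dgcr8 iKO. No mutant library reached its controls. Log2 fold changes were -0.93 ± 0.27 (adjusted p = 0.0474, under 2-fold, and -1.24 without Dicer iKO replicate 1) and -1.46 ± 0.23 (adjusted p = 0.000466). Adgrb2 (Bai2), a receptor of neurons and vessels, had 2.30, 1.98 and 2.16 CPM in Dicer controls, 6.79, 2.42 and 6.09 CPM in Dicer iKO, 3.07, 4.90 and 1.04 CPM in Dgcr8 controls and 9.79, 4.48 and 12.2 CPM in Dgcr8 iKO. It was called higher in Dgcr8 iKO (1.58 ± 0.48, adjusted p = 0.0198) although the groups overlapped, and the call was lost without Dgcr8 control replicate 1 (1.62) or 3 (1.14) and without Dgcr8 iKO replicate 1 (1.5) or 3 (1.28), with adjusted p between 0.0556 and 0.0652. In Dicer iKO its log2 fold change was 1.26 ± 0.41 (adjusted p = 0.0647), and 1.59 (adjusted p = 0.0323) without Dicer iKO replicate 2. Adgrb1 did not pass in either mutant (0.47 and 0.68).

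Adgrd1, the Gs-coupled receptor, was called lower in Dicer iKO and not in Dgcr8 iKO. It had 121, 61.4 and 55.9 CPM in Dicer controls and 36.3, 30.5 and 22.1 CPM in Dicer iKO, without overlap, and 11.5, 19.7 and 13.5 CPM in Dgcr8 controls and 8.73, 14.8 and 8.28 CPM in Dgcr8 iKO, with overlap. The control groups of the 2 mutants themselves were far apart for this gene. The log2 fold change was -1.42 ± 0.32 in Dicer iKO (adjusted p = 0.0206) and -0.47 in Dgcr8 iKO (adjusted p = 0.168). The first was -1.21 (adjusted p = 0.0405) with a term for sex, -0.98 without Dicer control replicate 1, and lost its adjusted threshold without Dicer iKO replicate 2 (-1.43, adjusted p = 0.0819) or 3 (-1.23, adjusted p = 0.094). Perineurial markers also moved, from 1098 to 1874 CPM in Dicer controls to 722 to 855 CPM in Dicer iKO and from 839 to 1213 to 578 to 784 CPM in the Dgcr8 comparison. Of these 5 markers 0 were called higher and 1 lower in Dicer iKO and 1 higher and 0 lower in Dgcr8 iKO, and their part in the fall of Adgrd1 was not tested.

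No fall of a Celsr gene passed the test in the mutants. Celsr2 had 20.5, 34.0 and 72.8 CPM in Dicer controls, 34.2, 35.5 and 42.8 CPM in Dicer iKO, 67.5, 97.4 and 52.2 CPM in Dgcr8 controls and 64.8, 65.0 and 77.9 CPM in Dgcr8 iKO. All of these overlapped, with log2 fold changes of -0.18 (95% interval -1.11 to 0.75) and -0.06 (-0.49 to 0.37), wide intervals that in the Dicer comparison reach a 2-fold fall. Celsr1 rose in Dgcr8 iKO by 0.50 ± 0.13 (adjusted p = 0.00708, under 2-fold), from 23.6, 23.9 and 22.4 to 33.3, 35.2 and 30.7 CPM, and did not pass in Dicer iKO (0.17, adjusted p = 0.289). Of the 9 polarity partners, Prickle1 was called lower in Dicer iKO (-1.16) and Prickle2 (-1.29) and Fzd3 (-1.22) in Dgcr8 iKO, and the summed level of the list was 512 to 600 against 324 to 385 CPM and 523 to 634 against 291 to 352 CPM. Adgrg2 (Gpr64), a receptor of the epididymis, had 0.676 to 5.89 CPM in these libraries and did not pass in either mutant (0.28 and -0.48).

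The mutants were compared with each other by the interaction term over all 12 libraries. By edgeR's QL test, 0 of 17 members passed an adjusted p of 0.05, where 2 of 13552 genes (0.0148%) did, and 13.7% of all genes had an unadjusted p under 0.05. By DESeq2's Wald test 235 genes passed. A difference between the mutants was thus not shown for any member by edgeR, also where a member was called in one mutant alone. The largest differences, given as Dgcr8 minus Dicer effect on the log2 scale, were 0.95 for Adgrd1 (adjusted p = 0.392), 0.88 ± 0.30 for Adgra3 (adjusted p = 0.237), -0.76 for the scarce Adgrg2 (adjusted p = 0.728), 0.59 for Adgre5 (adjusted p = 0.268) and 0.55 for Adgra2 (adjusted p = 0.336). Without Dicer control replicate 3 the difference for Adgra3 was 1.13 (adjusted p = 0.0155).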

How the data were processed

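Per the labels and methods, the authors trimmed paired reads of 125 bases (Trimmomatic 0.33), aligned them (STAR 2.5.1b) and quantified Ensembl transcripts of GRCm38 (RSEM 1.2.22). The release and strand setting are not given in the sources used here. The methods describe TruSeq libraries, whereas the labels give a SMARTer-type low-input kit for the crush samples.

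Deposited expected counts per transcript were summed per gene and rounded. CPM divide them by a library's total scaled by its TMM factor. Deposited TPM and FPKM values, which RSEM scales to length and library, were summed per gene to order levels and were not tested. Counts were tested in R 4.3.3 with edgeR 4.0.16 (filterByExpr, minimum count 10, TMM, quasi-likelihood test, BH adjustment over all genes), and with DESeq2 1.42.0 as an alternative. An SE is the size of the log2 fold change over the root of its F statistic. Steps were tested on simulated counts. The rest used Python 3.11.15.

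Members and lists were chosen with earlier results of these data known. All members are named. Of each partner list, up to 3 called genes per direction and comparison with the largest changes are named, with all Adgrg6 ligands, and some genes the rule would name are not reported here. Other genes were named after their values were seen. Where the labels name no animal, p-values measure the spread between libraries. Replicate numbers were not used as pairs.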

Additional observations from a re-analysis of the deposited data

Results flagged for a closer look

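In 44 groups of 4 libraries examined, 3 held a library whose gap to its neighbour passed Dixon's 95% limit of 0.829 of the group's range, and chance passes it in about 1 of 20 such groups. Adgrd1 was at 7.70 CPM in crushed replicate 1 against 2.48 to 3.34 CPM in the other crushed libraries. Adgrl1 was at 11.5 CPM in crushed replicate 4 against 14.2 to 14.6 CPM in the others. Celsr1 was at 21.0 CPM in contralateral replicate 2 against 15.8 to 16.6 CPM in the others. The first of these decides whether Adgrd1 is called after crush (log2 fold change -0.46 with it and -1.03 without it in both comparisons).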

How the results depend on the processing

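Of 1582 values of single genes under an alternative, 1539 stayed on the same side of the threshold, 28 lost and 15 gained a call, and 40 changed sign, none of them called in either fit. The interaction gave 2 genes in all, and 235 with DESeq2, 1 with RLE size factors, 0 with at least 10 counts in every sample, 20 without a filter, 0 with the replicate number as a block and 0 to 401 when 1 library was left out (401 without Dicer control replicate 3), with 0 to 1 members higher. Contralateral against uncrushed gave 0 genes, and 20 with DESeq2, 1 with all groups in one fit, 141 without a filter, 6 with the block and 0 to 95 without 1 library. In Dicer iKO 1175 genes were called, 640 with the block and 572 to 1411 without 1 library (623 without Dicer iKO replicate 2, 704 without Dicer control replicate 2), and the 2 members higher became 1 with the block (Adgrl1 1.08, adjusted p = 0.0679) and 1 to 2 without 1 library, the 1 lower 0 to 2. In Dgcr8 iKO the members higher were 2 to 6 and lower 1 to 2 without 1 library, and Adgrb2 lost its call with the block (1.57, adjusted p = 0.0525). Crushed against contralateral nerves gave 2 members higher with at least 10 counts in every sample instead of 4, and 3 to 4 higher and 2 to 4 lower without 1 library. Crushed against uncrushed nerves gave 5 higher and 4 to 8 lower. Without a filter Adgrb3 (-0.85), Adgrv1 (-0.80) and Celsr1 (-0.95) fell under 2-fold against uncrushed nerves and Adgra2 (1.07) passed it against contralateral nerves. Adgrb2 was called in Dicer iKO by DESeq2 (1.25, adjusted p = 0.0489). The sex term and TPM over transcripts of at least 200 nt were added after seeing the data. The cause of these changes was not tested. Crushed and contralateral nerves came from operated mice, but the labels tie no replicate number to a mouse. Same-numbered crushed and contralateral libraries correlated by -0.14 to 0.23 in their deviations from the group means, and differently numbered ones by -0.32 to 0.16. Pairing by number was thus not established. The block changed no other call of a member. Members under 2-fold that passed the adjusted threshold without the block and not with it were Adgrb3, Adgrf5, Adgrg1, Adgrl2 and Adgrl4 in Dicer iKO (adjusted p = 0.057 to 0.0855), Adgrg6 (0.0557) and Adgrl2 (0.0587) in Dgcr8 iKO and Adgra3 against contralateral nerves (0.0823), with little change in their fold changes. With 3 to 4 libraries a group and few counts for scarce members, small differences were not detectable at this depth.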
